A study of Mus musculus with 13 samples.

Results

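The genes described here are 38 members of the 4 mouse Hox clusters, out of 54532 genes in the table. The group was chosen with earlier results of these data known, and its members by their symbols and not by any measured value. They comprised 10 Hoxa, 10 Hoxb, 9 Hoxc and 9 Hoxd genes and filled 39 rows, because Hoxd4 had 2 identifiers. They were measured by bulk RNA sequencing in 13 small cell lung cancer tumours, 7 with the genotype sgKdm6a RPP and 6 with the genotype sgControl RPP. All tumours arose in congenic BL6J mice carrying LSL Cas9, an allele whose Cas9 is switched on by Cre, and RPP denotes the guides against Rb1, Trp53 and Rbl2 that both genotypes shared. The sgKdm6a tumours also received a guide against Kdm6a, a histone demethylase gene, and the sgControl tumours received a control guide in its place. No treatment was given, and whole tumours were flash frozen at necropsy. Age, sex and time to necropsy were not given in the sources used here.

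Hox genes encode homeodomain transcription factors that give cells their position along the head to tail axis. Within a cluster the genes at the 3′ end (low paralogue numbers) are switched on early and towards the head, and those at the 5′ end (high paralogue numbers) later and towards the tail. Silent Hox clusters carry trimethylated lysine 27 of histone H3, the mark laid down by Polycomb repressive complex 2 and removed by KDM6A. In the lung, anterior Hoxa and Hoxb genes, among them Hoxa5 and Hoxb5, are expressed in the mesenchyme and take part in airway branching.

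Total counts were 16835726 to 22910187 per tumour, so that 3 counts, used here as the limit of detection, corresponded to 0.130 to 0.184 CPM, the count scaled to the TMM-adjusted size of its library. The mRNA of Kdm6a, which a small edit need not lower, was at 42.5 to 91.2 CPM in sgKdm6a tumours and 51.6 to 112 CPM in sgControl tumours, so it does not check the genotype. Other features of the libraries bear on the results below. The sgKdm6a tumours with replicate numbers 1 and 2, 4 and 5, and 6 and 7 have the same number in their titles in pairs, and a pair may be of 1 animal. The labels name no animals, so p-values measure the spread between these samples. sgControl replicate 6 held far more RNA of normal lung, with a mean of 8.04 log2 CPM over alveolar, endothelial, fibroblast and macrophage marker lists, against 2.62 to 4.73 in sgKdm6a tumours and 4.30 to 4.87 in the other sgControl tumours. Reads from the Y-linked gene Ddx3y exceeded 3 counts in 1 of 7 sgKdm6a and 5 of 6 sgControl tumours, so genotype and Y-linked reads were partly confounded. The 15 neuroendocrine markers averaged 6.54 to 8.60 log2 CPM in sgKdm6a tumours and 6.59 to 8.38 log2 CPM in sgControl tumours, and at least 14 of the 15 exceeded 3 counts in each tumour.

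Almost all counts of these Hox members came from a single block of the Hoxb cluster, Hoxb2 to Hoxb9. Of the 38 members, 17 never exceeded 3 counts, 6 of these having no count at all, and 8 exceeded 3 counts in all 13 tumours. The Hoxb genes made up at least 99.0% of the counts of all members in 11 of 13 tumours. The exceptions were sgKdm6a replicate 1, with 46.8% (Wilson 95% interval 41.3 to 52.3), and sgControl replicate 6, with 90.9% (90.1 to 91.7). These intervals and the limit of detection cover counting error only. A median of 12 members exceeded 3 counts in sgKdm6a tumours and 12.5 in sgControl tumours, with ranges of 9 to 16 and 11 to 16. In bulk tissue, fewer cells of a type and less RNA per cell cannot be told apart.

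**Figure D1:**
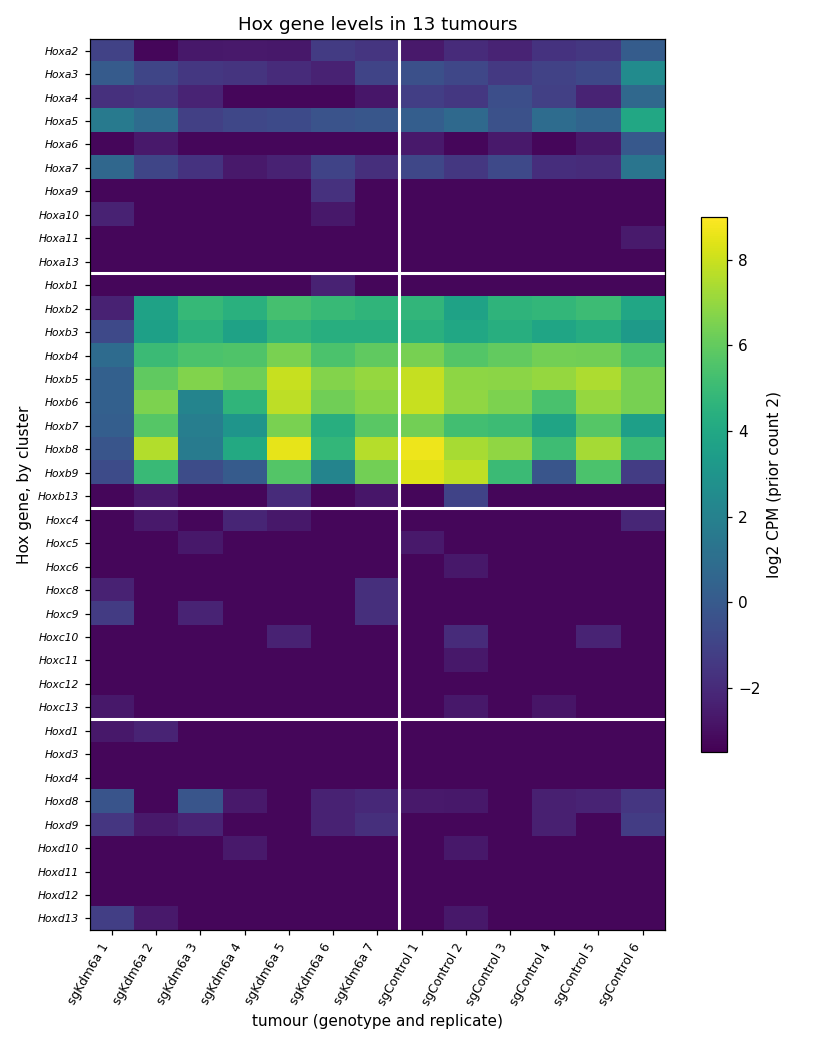
Level of each Hox cluster gene (rows, by cluster and paralogue number) in each tumour (columns, sgKdm6a left of sgControl) as log2 CPM with a prior count of 2. Signal lies in the rows Hoxb2 to Hoxb9, is low throughout them in sgKdm6a replicate 1 and low at Hoxb9 in 5 of 13 tumours, and the Hoxc and Hoxd rows stay near the floor.

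The Hoxb cluster lies on chromosome 11 of mm10 at chr11:96194316-96368256, with every gene on the plus strand, Hoxb13 at its 5′ end and Hoxb1 at its 3′ end. The expressed block runs from the start of Hoxb9 at 96271457 to the end of Hoxb2 at 96354012 and also holds the microRNA gene Mir10a between Hoxb5 and Hoxb4. Promoters were taken as the 250 bases upstream of the start of each gene in RefSeq on GRCm38.p6, of which mm10 is the UCSC name. These are shown for Hoxb4 and Hoxb8, of the middle and the 5′ part of the block, the only genes of the block with a matched promoter. They are also shown for the barely detected 3′ neighbour Hoxb1 and for Hoxa5, the only Hoxa member abundant enough to test. Capitals mark CG dinucleotides, the substrate of DNA methylation. Dense runs of them are found at Polycomb target promoters but are not particular to these.
Hoxb4 promoter, chr11:96318017-96318266 (+): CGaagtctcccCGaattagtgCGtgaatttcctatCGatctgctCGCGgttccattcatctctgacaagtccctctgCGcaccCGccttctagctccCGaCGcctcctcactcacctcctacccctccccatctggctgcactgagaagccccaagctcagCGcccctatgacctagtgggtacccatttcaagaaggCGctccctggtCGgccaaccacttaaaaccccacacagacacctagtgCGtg
Hoxb8 promoter, chr11:96281655-96281904 (+): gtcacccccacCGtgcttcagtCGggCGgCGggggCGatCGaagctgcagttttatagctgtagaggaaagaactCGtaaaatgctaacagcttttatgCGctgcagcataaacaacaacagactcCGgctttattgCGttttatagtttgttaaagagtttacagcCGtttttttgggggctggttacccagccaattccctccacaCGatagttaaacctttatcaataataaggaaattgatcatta
Hoxb1 promoter, chr11:96365508-96365757 (+): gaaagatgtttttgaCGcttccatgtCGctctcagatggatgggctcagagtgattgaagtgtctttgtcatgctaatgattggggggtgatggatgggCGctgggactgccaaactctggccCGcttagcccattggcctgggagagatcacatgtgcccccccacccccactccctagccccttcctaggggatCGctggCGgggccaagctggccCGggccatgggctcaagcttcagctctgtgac
Hoxa5 promoter, chr6:52204588-52204837 (-): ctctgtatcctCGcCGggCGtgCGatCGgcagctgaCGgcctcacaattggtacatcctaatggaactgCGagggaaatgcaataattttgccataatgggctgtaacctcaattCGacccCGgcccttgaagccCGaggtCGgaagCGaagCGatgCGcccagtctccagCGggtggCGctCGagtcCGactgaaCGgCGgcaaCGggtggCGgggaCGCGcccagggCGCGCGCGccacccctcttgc
The upstream windows of the expressed genes Hoxb4 and Hoxb8 held 14 and 12 CG dinucleotides, that of Hoxb1 held 7 and that of Hoxa5 held 28. Among members without a count in any tumour, a window of Hoxd11 held 2 and that of Hoxa13 held 35. The number of CG dinucleotides thus did not separate expressed from undetected members. RefSeq promoters were matched for 22 of the 38 members, giving 24 windows with a median of 12.5 CG dinucleotides, against 6 over all 32851 promoters of this length. At least 10 CG dinucleotides were present in 15 of the 24 member windows and in 37.8% of all promoters. On either strand, the letters AGGTCA, the core site of nuclear receptors such as retinoic acid receptors, were found in 6 of 24 member windows and 14% of all. TGATNNAT, the site written for Hox and Pbx dimers, was found in 4 of 24 and 7.68% of all. These matches describe letters in the window and are not binding sites.

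MicroRNA genes lie inside the clusters, and those of the Hoxb, Hoxd and Hoxa clusters are shown because they fall into the same seed families across clusters. Mature sequences from RefSeq are given with the seed, bases 2 to 8, in capitals.
mmu-miR-10a-5p: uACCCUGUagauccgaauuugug
mmu-miR-10b-5p: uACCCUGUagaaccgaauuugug
mmu-miR-196a-5p: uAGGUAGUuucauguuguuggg
mmu-miR-196b-5p: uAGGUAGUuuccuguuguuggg
The microRNAs miR-10a (from the Hoxb cluster) and miR-10b (from the Hoxd cluster) share the seed ACCCUGU, and miR-196a (Hoxb and Hoxc clusters) and miR-196b (Hoxa cluster) share AGGUAGU. Reads over the Mir10a locus amounted to 1 to 40 counts in sgKdm6a tumours and 4 to 32 in sgControl tumours, and its difference between genotypes was -0.44 log2 units (SE 0.60, unadjusted p = 0.478). Mir196a-1, 5′ of Hoxb9, had at most 4 counts in any tumour. Mature microRNAs were not measured, since these are long RNA libraries, and such reads may derive from host transcripts.

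The 3′ part of the block comprised Hoxb2 and Hoxb3, which pattern the hindbrain, Hoxb4, known for expanding blood stem cells, and Hoxb5, a gene of lung mesenchyme and gut nerve cells. Values are listed by replicate number. Hoxb2 was at 0.0974, 12.7, 28.8, 21.3, 39.9, 29.7 and 25.4 CPM in sgKdm6a tumours, against 26.2, 13.04, 24.2, 27.2, 33.9 and 14.8 CPM in sgControl tumours. All tumours but sgKdm6a replicate 1, with 2 counts of this gene, lay within a narrow range. Hoxb3 was at 0.487, 11.99, 23.3, 12.7, 26.2, 19.9 and 20.4 CPM in sgKdm6a tumours, against 21.5, 15.2, 20.1, 14.4, 18.9 and 9.88 CPM in sgControl tumours. It showed the same outlying low tumour. Hoxb4 was at 1.75, 31.9, 44.0, 47.5, 90.7, 43.6 and 62.3 CPM in sgKdm6a tumours, against 86.8, 50.4, 64.0, 81.4, 77.1 and 43.2 CPM in sgControl tumours. Hoxb5 was at 1.17, 60.7, 99.96, 75.0, 247.6, 102.4 and 129.9 CPM in sgKdm6a tumours, against 238.7, 117.3, 112.2, 130.0, 174.8 and 86.5 CPM in sgControl tumours. For each of these genes the genotypes overlapped, and over the 12 tumours other than sgKdm6a replicate 1 the highest value was 2.66 to 4.08 times the lowest.

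The 5′ part of the block comprised Hoxb6, Hoxb7, Hoxb8 and Hoxb9, which pattern the trunk. Hoxb8 is also known for holding myeloid progenitors in growth, and Hoxb9 for shaping the thoracic skeleton. Hoxb6 was at 1.17, 93.7, 4.28, 25.4, 217.5, 78.9 and 110.6 CPM in sgKdm6a tumours, against 245.0, 122.7, 92.3, 42.9, 130.4 and 85.6 CPM in sgControl tumours. Hoxb7 was at 1.07, 51.5, 3.55, 8.02, 90.5, 20.4 and 56.0 CPM in sgKdm6a tumours, against 79.8, 37.4, 33.0, 13.8, 52.6 and 11.8 CPM in sgControl tumours. For both genes sgKdm6a replicates 1 and 3 were lowest and sgKdm6a replicate 5 and sgControl replicate 1 were highest. Hoxb8 was at 0.779, 191.6, 3.19, 17.2, 376.0, 27.1 and 198.1 CPM in sgKdm6a tumours, against 404.3, 167.1, 122.7, 34.8, 157.2 and 32.4 CPM in sgControl tumours. Hoxb9 was at 0.535, 31.3, 0.567, 0.967, 50.1, 4.32 and 81.3 CPM in sgKdm6a tumours, against 340.8, 226.6, 32.1, 0.778, 43.7 and 0.307 CPM in sgControl tumours. Hoxb9 was below 1 CPM in 3 of 7 sgKdm6a and 2 of 6 sgControl tumours, and the lowest tumour of all was sgControl replicate 6. The genotypes overlapped for each gene.

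The spread between tumours grew towards the 5′ end of the block. Over the 12 tumours other than sgKdm6a replicate 1, the SD of log2 CPM was 0.53 for Hoxb2, 0.43 for Hoxb3, 0.48 for Hoxb4 and 0.62 for Hoxb5. It was 1.56 for Hoxb6, 1.43 for Hoxb7, 2.08 for Hoxb8 and 3.44 for Hoxb9. The ratio of the highest to the lowest tumour was 57.3 for Hoxb6, 25.5 for Hoxb7, 126.6 for Hoxb8 and 1111 for Hoxb9. Over all 13 tumours the SD of each of the 8 genes ranked at the 87.3 to 99.9 percentile of tested genes, whose median SD was 0.57. These ranks include sgKdm6a replicate 1. With it the SD was 1.97 for Hoxb2, 1.41 for Hoxb3, 1.45 for Hoxb4 and 1.91 for Hoxb5, far above the values without it. Ranks over the 12 tumours were not taken.

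**Figure D2:**
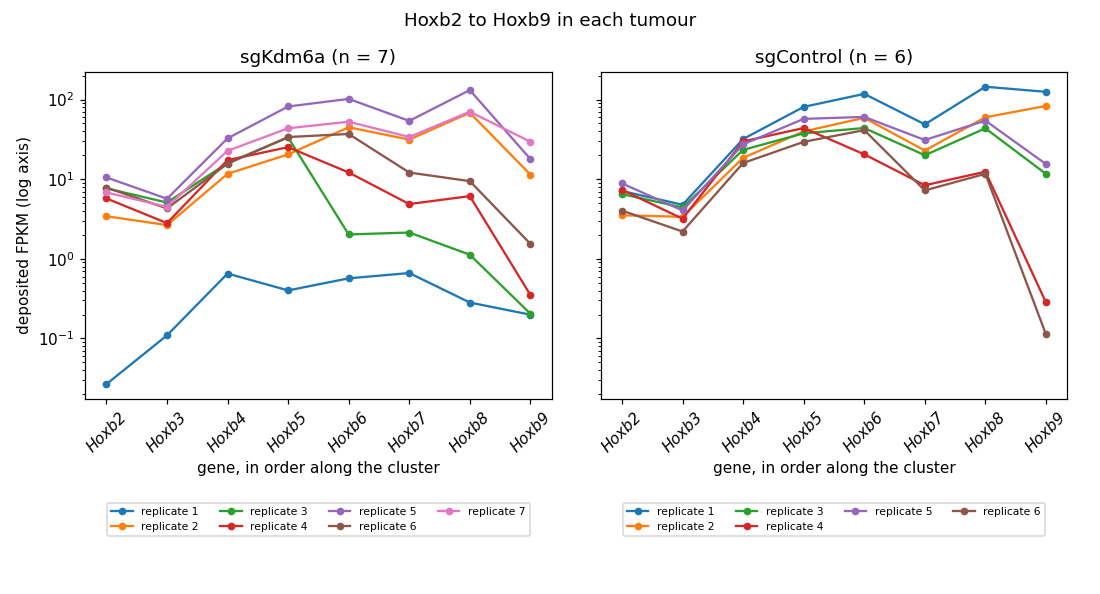
FPKM of Hoxb2 to Hoxb9 along the cluster (log axis) with a line for each tumour, in sgKdm6a tumours and in sgControl tumours. Lines run close together over Hoxb2 to Hoxb5 and fan out towards Hoxb9, and the line of sgKdm6a replicate 1 lies below all others from Hoxb2 to Hoxb8.

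Per length of transcript, the order of the genes changed between tumours. Median FPKM, the number of fragments scaled to transcript length and library size, over all 13 tumours were 6.81 for Hoxb2, 4.05 for Hoxb3, 18.5 for Hoxb4 and 37.6 for Hoxb5. They were 43.9 for Hoxb6, 20.0 for Hoxb7, 43.5 for Hoxb8 and 11.4 for Hoxb9. The step between Hoxb3 and Hoxb4 was the most regular, with Hoxb4 higher in 13 of 13 tumours by a median of 5.05-fold in sgKdm6a and 6.73-fold in sgControl tumours. Hoxb6 exceeded Hoxb5 in 10 of 13 tumours, with Hoxb6 over Hoxb5 ratios of 0.0607 to 2.19 in sgKdm6a and 0.468 to 1.48 in sgControl tumours, so that these neighbours were not separated beyond their spread. Hoxb9 exceeded Hoxb8 in 1 tumour alone, sgControl replicate 2, where Hoxb9 was the highest gene of the block. Among sgKdm6a tumours the highest gene was Hoxb8 in replicates 2, 5 and 7, Hoxb5 in replicates 3 and 4, Hoxb6 in replicate 6 and Hoxb7 in replicate 1. Among sgControl tumours it was Hoxb6 in replicates 3, 5 and 6, Hoxb5 in replicate 4 and Hoxb8 in replicate 1.

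The FPKM summed over Hoxb6 to Hoxb9 was set against that summed over Hoxb2 to Hoxb5, a division made after the values had been seen. The ratio was 1.44, 4.08, 0.0885, 0.459, 2.34, 0.975 and 2.40 in sgKdm6a tumours, against 3.50, 3.45, 1.66, 0.494, 1.66 and 1.17 in sgControl tumours. It was lowest in sgKdm6a replicate 3, where Hoxb2 to Hoxb5 lay within the range of the other tumours, and highest in sgKdm6a replicate 2. sgKdm6a replicate 3 also had the lowest mean of the normal lung lists, 2.62 log2 CPM. Its alveolar and endothelial lists were the lowest of all tumours. Its fibroblast and pericyte list (4.33 log2 CPM) and its macrophage list (4.08 log2 CPM) were not. Whether this is related to the Hoxb pattern was not tested.

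In 2 of the 3 pairs of tumours that share a title number, the difference within the pair was graded along the block. sgKdm6a replicate 5 was above replicate 4 by 1.87-fold at Hoxb2, 3.30-fold at Hoxb5, 8.55-fold at Hoxb6 and 51.8-fold at Hoxb9. sgKdm6a replicate 7 over replicate 6 gave ratios of 0.856 at Hoxb2, 1.27 at Hoxb5, 7.32 at Hoxb8 and 18.8 at Hoxb9. In these pairs the difference was small at the 3′ end and large at the 5′ end. sgKdm6a replicate 2 was above replicate 1 at every gene of the block, by 18.2-fold at Hoxb4 to 246-fold at Hoxb8, with no such gradient.

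Set against the median of the other 12 tumours, sgKdm6a replicate 1 was lower by a factor of 32.2 at Hoxb4 to 180 at Hoxb8 over Hoxb3 to Hoxb9. At Hoxb2, with 2 counts in that tumour, the factor was 265 with an exact Poisson 95% interval of 73.5 to 2192 for counting error. It was the lowest of 13 tumours for 7 of the 8 genes. The sum over the Hoxb members there was 145 counts, or 7.06 CPM. Hoxb sums were 485.4, 207.6, 208.2, 1139, 326.4 and 684.3 CPM in sgKdm6a replicates 2 to 7, against 1443, 750.2, 500.7, 345.4, 688.5 and 284.5 CPM in sgControl tumours. The median was 326.4 CPM in sgKdm6a and 594.6 CPM in sgControl tumours, and the genotypes overlapped.

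**Figure D3:**
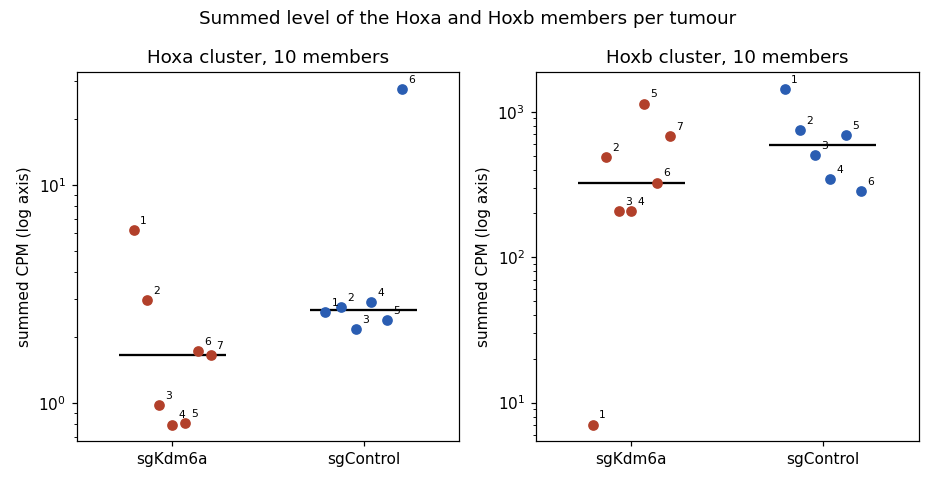
Summed CPM of the 10 Hoxa members and of the 10 Hoxb members (log axes) in each tumour, labelled by replicate number, sgKdm6a left of sgControl, with a line at the median. The Hoxb sums lie between 207.6 and 1443 CPM in 12 tumours and at 7.06 CPM in sgKdm6a replicate 1, and the Hoxa sum of sgControl replicate 6, 27.7 CPM, stands above the other 12.

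The comparison of sgKdm6a with sgControl tumours asks whether targeting this demethylase goes with other Hox levels. It was made with edgeR's quasi-likelihood test over 16575 genes, with Benjamini-Hochberg adjustment. A total of 9 Hox members entered the test, Hoxa5 and Hoxb2 to Hoxb9, and 0 of these 9 reached an adjusted p under 0.05, as did 0.00% of all genes tested. At an unadjusted p under 0.05, 0 of 9 were higher in sgKdm6a tumours, against 3.18% of all genes, and 1 of 9 (Hoxa5) was lower, against 6.97% of all genes, so that 1 of 9 passed in either direction, against 10.2%. DESeq2 called 83 genes, 0.430% of those it adjusted, and no Hox member among them. At an unadjusted p under 0.05 it gave 2 of 30 Hox members with a p (Hoxa4 and Hoxa6) as lower, against 3.80% of all genes with one. Both were highest in sgControl replicate 6, with 25 of 68 counts of Hoxa4 and 14 of 18 of Hoxa6. Hoxa6 exceeded 3 counts in no other tumour. Hoxa4 exceeded 3 counts in 5 of 6 sgControl and 2 of 7 sgKdm6a tumours. By replicate number Hoxa4 had 6, 5, 11, 8, 2 and 25 counts in sgControl tumours, against 4, 4, 2, 0, 0, 0 and 1 in sgKdm6a tumours. The DESeq2 log2 fold change of Hoxa4 was -2.74 (SE 0.885, DESeq2 unadjusted p = 0.00199, adjusted p = 0.126). The genotypes overlapped for all 9 members tested with edgeR, as for all but 47 genes tested (0.284%). All 9 log2 fold changes were negative, with a median of -0.48, against 50.3% negative and a median of -0.0017 over all genes tested. Since the Hoxb genes vary together across tumours, their signs are not independent.

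Within the block the fitted difference was near 0 at the 3′ end, -0.04 log2 units for Hoxb2 (SE 0.68) and -0.02 for Hoxb3 (SE 0.55). It was -0.55 for Hoxb4 (SE 0.53), -0.48 for Hoxb5 (SE 0.65), -0.66 for Hoxb6 (SE 0.83), -0.21 for Hoxb7 (SE 0.81) and -0.40 for Hoxb8 (SE 1.06). These 7 genes had edgeR adjusted p values between 0.783 and 0.999, and for all 7 the difference was smaller than its SE or near to it. Hoxb9 had the largest fitted difference of the 9 members without covariates and the largest error, -2.15 log2 units (SE 1.43, edgeR unadjusted p = 0.155, Benjamini-Hochberg adjusted p = 0.654), with means of 2.57 ± 3.06 log2 CPM in 7 sgKdm6a tumours and 4.20 ± 4.06 log2 CPM in 6 sgControl tumours (SD). The value for Hoxb9 ran from -2.88 to -1.33 over fits without 1 tumour (-1.33 without sgControl replicate 1). It was -0.65 (SE 2.01) with a term for the title number series and -4.03 (SE 8.18) with one for Y-linked genes. The signs of Hoxb2, Hoxb3, Hoxb7 and Hoxb8 turned when single tumours were left out. Without sgKdm6a replicate 1 the differences were 0.18 for Hoxb2 and 0.20 for Hoxb3. Without sgControl replicate 1 they were 0.15 for Hoxb7 and 0.18 for Hoxb8. Title numbers fall into a lower and a higher range, whose meaning the labels do not give. Among the 5 tumours with lower title numbers Hoxb9 differed by -3.64 log2 units, and among the 8 with higher numbers by 0.88, and the test of that difference gave an edgeR adjusted p of 0.787.

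**Figure D4:**
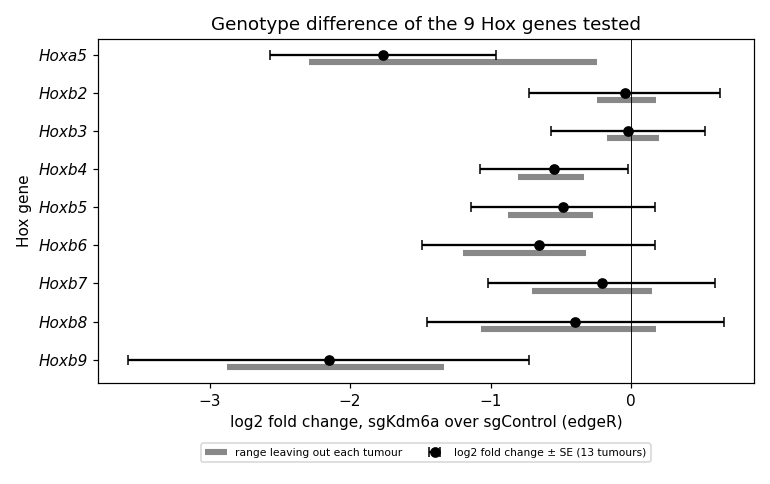
Log2 fold change of sgKdm6a over sgControl tumours for the 9 tested Hox members. Error bars are 1 SE, derived from the edgeR F statistic, and grey bars the range over fits that each leave out 1 tumour. All 9 points lie below 0, and the error bars of Hoxb2, Hoxb3, Hoxb5, Hoxb6, Hoxb7 and Hoxb8 cross it.

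The Hoxa cluster (chr6:52162417-52260880) was expressed at a low level. Hoxa5, at chr6:52201754-52204587 on the minus strand, is needed for the development of the lung and trachea and is made in their mesenchyme. Hoxa5 was at 3.07, 1.81, 0.361, 0.455, 0.507, 0.695 and 0.781 CPM in sgKdm6a tumours, against 1.08, 1.63, 0.655, 1.77, 1.35 and 16.1 CPM in sgControl tumours. sgControl replicate 6 stood far above the rest, and the other values overlapped. The difference was -1.77 log2 units (SE 0.80, edgeR unadjusted p = 0.0458, Benjamini-Hochberg adjusted p = 0.483), with means of -0.08 ± 1.02 log2 CPM in 7 sgKdm6a and 1.02 ± 1.54 log2 CPM in 6 sgControl tumours (SD). Without sgControl replicate 6 it was -0.24 log2 units (unadjusted p = 0.664). With a term for the normal lung lists it was 0.45 log2 units. sgControl replicate 6 was highest in each of the 5 normal lung lists. Its fibroblast and pericyte list was at 7.95 log2 CPM. In the other tumours that list ran from 3.64 to 5.81 in sgKdm6a and from 4.10 to 5.42 in sgControl. Its macrophage list was at 8.79 and its alveolar type 2 list at 8.54 log2 CPM. Which of these cells its Hoxa5 RNA came from was not tested. Among the 5 tumours with lower title numbers Hoxa5 differed by 1.11 log2 units, and among the 8 with higher numbers, which include that tumour, by -3.52. The test of that difference gave an edgeR unadjusted p of 0.0023 and a Benjamini-Hochberg adjusted p of 0.712.

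**Figure D5:**
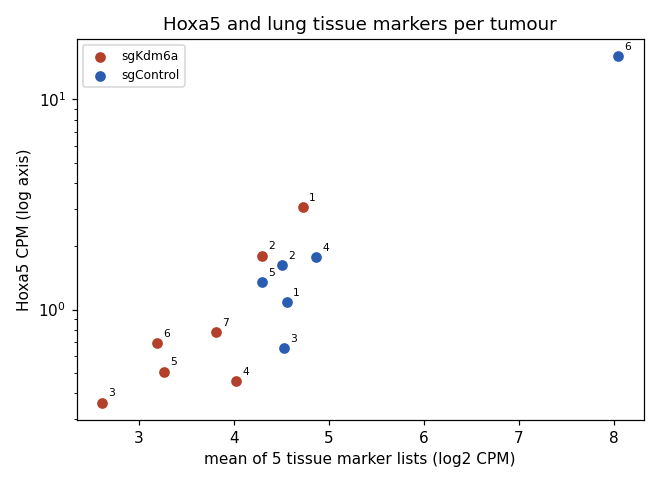
Hoxa5 level in CPM (log axis) against the mean of the 5 normal lung marker lists in log2 CPM, with 1 point for each tumour, sgKdm6a and sgControl in separate colours. sgControl replicate 6 lies at the upper right, at 8.04 on the marker axis and 16.1 CPM for Hoxa5, apart from the other 12 tumours, whose marker means run from 2.62 to 4.87.

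Hoxa3, a gene of thymus and parathyroid development, was too low to test. It was at 0.974, 0.438, 0.258, 0.228, 0.152, 0.0993 and 0.413 CPM in sgKdm6a tumours, against 0.626, 0.459, 0.273, 0.389, 0.468 and 5.71 CPM in sgControl tumours. Its 93 counts in sgControl replicate 6 were the highest of any untested member. Hoxa3 overlaps Hoxa4, Hoxa5 and Hoxa6 on the same strand in the annotation, so the counts of all these genes, the tested Hoxa5 included, are uncertain. The other Hoxa members of the anterior and middle cluster, Hoxa2, Hoxa4, Hoxa6 and Hoxa7, reached at most 16, 25, 14 and 40 counts in any tumour, and Hoxa9, Hoxa10, Hoxa11 and Hoxa13, genes of the posterior body and limb, at most 4. Summed over the cluster, Hoxa members gave 6.23, 2.96, 0.979, 0.796, 0.811, 1.74 and 1.65 CPM in sgKdm6a tumours, against 2.62, 2.75, 2.18, 2.89, 2.39 and 27.7 CPM in sgControl tumours. The tumour lowest in Hoxb RNA, sgKdm6a replicate 1, was the highest of the sgKdm6a tumours in Hoxa RNA. It was also the highest of them in the fibroblast and pericyte list, with 5.81 log2 CPM, and in the mean of the normal lung lists, with 4.73 log2 CPM. The part of these cells in its Hoxa counts was not tested.

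The ends of the Hoxb cluster were near or under the limit of detection. Hoxb1, a hindbrain gene at the 3′ end, had at most 2 counts, and Hoxb13, a tail and prostate gene far from the block at the 5′ end, at most 8. The Hoxc cluster (chr15:102921103-103036852) had at most 6 counts for any gene, reached by Hoxc9, and 7 of 9 Hoxc members never exceeded 3. The Hoxd cluster (chr2:74668310-74765142) had at most 15 counts, reached by Hoxd8, and 6 of 9 never exceeded 3. Hoxd3, Hoxd4, Hoxd11 and Hoxd12 had none. Hoxc5 overlaps Hoxc6, Hoxc8, Hoxc9 and Hoxc10 on the same strand, and Hoxd3 and Hoxd4 overlap each other. Reads of these genes could be left unassigned, so their low counts are uncertain. Hoxd members summed to 28 counts in sgKdm6a replicate 1 and 17 in sgKdm6a replicate 3, against 0 to 9 in the other 11 tumours.

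Noncoding genes of the clusters had low counts too, with 3 of 17 abundant enough to test. An unadjusted p under 0.05 was passed by 0 of these 3, against 10.2% of all genes tested. With 3 genes this count cannot be told from that share. Hoxb5os, antisense to Hoxb5 and Hoxb6, ran from 0.243 to 10.99 CPM in sgKdm6a tumours and from 0.950 to 13.3 CPM in sgControl tumours, a difference of -0.91 log2 units (SE 0.72). Hoxb3os, antisense to Hoxb2 and Hoxb3, ran from 0 to 10.3 CPM in sgKdm6a tumours and from 3.01 to 6.56 CPM in sgControl tumours, a difference of 0.33 log2 units (SE 0.76). Because the libraries were not stranded, reads of these genes and of the Hoxb genes they overlap cannot be told apart. Hotair and Hottip, the long RNAs of the Hoxc and Hoxa clusters, had medians of 0 CPM in both genotypes.

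Genes beside the clusters did not follow a common course. Of 13 flanking genes 9 were tested, and 1 was higher and 0 lower at an unadjusted p under 0.05, against 3.18% and 6.97% of all genes tested. This was Lnpk, an endoplasmic reticulum shaping gene next to the Hoxd cluster, at 50.4 to 79.2 CPM in sgKdm6a and 23.7 to 45.9 CPM in sgControl tumours, without overlap, as for 0.284% of all genes (log2 fold change 0.55, SE 0.17, edgeR unadjusted p = 0.00664, Benjamini-Hochberg adjusted p = 0.419). Skap1, an adaptor gene that follows Hoxb1, was at 0.535, 35.2, 0, 18.8, 86.0, 97.1 and 59.6 CPM in sgKdm6a tumours, against 33.7, 17.2, 86.8, 36.6, 60.2 and 36.3 CPM in sgControl tumours. It was near the floor in sgKdm6a replicates 1 and 3, and the next gene, Snx11, was at 26.6 to 61.2 CPM in sgKdm6a and 30.0 to 47.2 CPM in sgControl tumours, with no such low tumours. Hibadh beside Hoxa and Calcoco1 beside Hoxc, an enzyme gene and a coactivator gene, differed by -0.38 (SE 0.23) and -0.32 (SE 0.30) log2 units, and neither passed an unadjusted p under 0.05.

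All 9 TALE homeobox genes, whose proteins bind DNA as partners of Hox proteins, were tested, and 1 was higher and 0 lower at an unadjusted p under 0.05, where 1 of 9 in either direction is near the 10.2% of all genes. Meis1 was at 7.55 to 21.8 CPM in sgKdm6a and 2.84 to 15.8 CPM in sgControl tumours, a log2 fold change of 0.91 (SE 0.39, edgeR unadjusted p = 0.0347, Benjamini-Hochberg adjusted p = 0.459). Pbx2 and Pknox2 differed by -0.28 (SE 0.19) and -0.75 (SE 0.52) log2 units and did not pass. The median over the 9 genes was -0.03 log2 units, beside -0.0017 over all genes.

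Retinoic acid switches on 3′ Hox genes in the embryo. Of 18 genes of its pathway 15 were tested, with 0 at an adjusted p under 0.05, and 3 were lower and 0 higher at an unadjusted p under 0.05, against 6.97% and 3.18% of all genes. Stra6, a vitamin A importer, was at 0.114 to 2.63 CPM in sgKdm6a and 0.691 to 98.5 CPM in sgControl tumours (log2 fold change -4.38, SE 1.27, edgeR unadjusted p = 0.00402, Benjamini-Hochberg adjusted p = 0.419), and its highest values were 98.5 and 19.2 CPM in sgControl replicates 2 and 1. The log2 fold change of Crabp2, a retinoic acid carrier, was -2.57 (SE 1.11), with high values in the same sgControl tumours, with 12.5 and 9.05 CPM, against at most 1.66 CPM elsewhere. These tumours also had the highest Hoxb9. That of Dhrs3, a retinal reductase, was -1.26 (SE 0.54), and it was highest, at 85.5 CPM, in sgControl replicate 6. The relation of these genes to Hox levels was not tested. The median over the list was -0.18 log2 units.

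Of 26 chromatin and transcription factors known to act on Hox clusters 23 were tested. An unadjusted p under 0.05 was passed by 0 of 23, against 10.2% of all genes tested. The 23 genes had a median of -0.06 log2 units. Among them the Polycomb enzyme gene Ezh1 differed by -0.54 (SE 0.31), the Polycomb subunit gene Suz12 by 0.21 (SE 0.20), the related demethylase gene Kdm6b by -0.26 (SE 0.25) and Kdm6a itself by -0.14 (SE 0.22) log2 units.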

How the data were processed

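RNA of 13 tumours had been sequenced as paired reads from a kit that does not keep strand, per the labels' protocols. The authors deposited raw read counts per gene and, in separate tables, FPKM values. STAR and DESeq2 and the build mm10 are named in the submitters' processing notes, while the sources used here give neither counting program nor annotation. FPKM was read as deposited and used only to compare levels between genes; the library size behind it was 0.883 to 1.12 times the total count.

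Groups came from the genotype label. Replicate numbers were given in listing order and pair nothing. Gene symbols that a spreadsheet had turned into dates were restored by identifier for 15 genes. Counts were filtered with filterByExpr, scaled by TMM and fitted with edgeR 4.0.16 in R 4.3.3 (robust quasi-likelihood F test, 2 groups, no covariate), with Benjamini-Hochberg adjustment over the 16575 genes tested and a threshold of 0.05. CPM is per TMM-adjusted library size, and log2 CPM used a prior count of 2. Fitted fold changes compare mean counts and so can differ from differences of mean log2 CPM. The SE of a fold change is not an edgeR output. It was taken as the absolute log2 fold change divided by the square root of the F statistic. A member was called detected above 3 counts. The test was checked on simulated counts, with genes drawn independently of each other. That check did not cover genes that vary together, and its outcome is not given here.

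The members and the gene lists were chosen with earlier results of these data known. Values in every tumour are given for members that averaged 1 CPM or more in either genotype or had an unadjusted p under 0.05. From the other lists the 3 genes of smallest p that averaged 1 CPM or more are named, and further genes named were chosen after their values were seen. Alternatives were DESeq2 1.42.0, other scaling, no filter, tumours with a shared title number summed, terms for title number series, normal lung lists or Y-linked genes, each tumour left out, and other limits of detection.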

Additional observations from a re-analysis of the deposited data

Results flagged for a closer look

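In 24 groups of tumours examined, each a Hox member or cluster sum in a genotype, 8 values lay farther from the others than Dixon's 95% critical value allows, a gap that chance gives in about 5% of groups. In sgKdm6a replicate 1 Hoxb2 was lowest at -2.32 log2 CPM, against 3.68 to 5.32 in the other sgKdm6a tumours. Hoxb3 was lowest there at -0.76, Hoxb4 at 0.89 and Hoxb5 at 0.35 log2 CPM, and the Hoxb sum was lowest at 2.82 on the log2 CPM scale, against 7.70 to 10.15. In sgControl replicate 6 Hoxa5 was highest at 4.02 log2 CPM, where sgControl replicates 1 to 5 ran from -0.40 to 0.91. Hoxa3 was highest there at 2.54 log2 CPM, which follows from the choice of genes, since Hoxa3 was examined only because this tumour brought its sgControl mean above 1 CPM. The Hoxa sum was highest there at 4.79 on the log2 CPM scale, against 1.13 to 1.53. The flags are not independent, since the genes share a cluster and a tumour.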

How the results depend on the processing

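No paired analysis was possible because replicate numbers were given in listing order and link no sgKdm6a tumour to an sgControl tumour. No setting gave a Hox member an adjusted p under 0.05. DESeq2 gave 83 genes an adjusted p under 0.05 and 2 Hox members (Hoxa4 and Hoxa6) of 30 lower at an unadjusted p (2248 genes in all), and no p for Hoxa5. With no filter on low counts 4 Hox members were lower (Hoxa3, Hoxa4, Hoxa5 and Hoxa6) and 2 were higher (Hoxc8 and Hoxc9). In all 3262 genes then passed an unadjusted p, against 1683. The number of genes tested without the filter is not given here. The edgeR adjusted p values of these Hox members were 0.507 to 0.510. The 4 lower members were each highest in sgControl replicate 6, and Hoxc8 and Hoxc9 had at most 4 and 6 counts in any tumour. Hoxa4 exceeded 3 counts in 5 of 6 sgControl and 2 of 7 sgKdm6a tumours. The count of lower members was 0 when tumours with a shared title number were summed, with the series term, with the Y-linked term and within the lower series; genes passing an unadjusted p were then 946 when summed, 1094 with the Y-linked term and 894 in the lower series. With the term for normal lung lists the lower member was Hoxb9, at -3.75 log2 units (SE 1.68, edgeR unadjusted p = 0.0443, Benjamini-Hochberg adjusted p = 0.688). The number of all genes passing is not given here for that fit or for the series term. The member counts of those fits therefore cannot be read against a background. Signs turned for Hoxb3 (0.033 summed, 0.24 with the Y-linked term), Hoxb2 (0.0025 with the Y-linked term) and Hoxa5 (0.45 with the lung term, 1.11 in the lower series). Within the higher series, a division chosen after seeing the data, they turned for Hoxb2 (0.19), Hoxb3 (0.50), Hoxb6 (0.0058), Hoxb7 (0.45), Hoxb8 (0.73) and Hoxb9 (0.88). Leaving out each tumour gave 0 to 1 lower members, 932 to 1938 genes at an unadjusted p, and ranges of -0.24 to 0.18 for Hoxb2, -0.17 to 0.20 for Hoxb3, -0.70 to 0.15 for Hoxb7, -1.07 to 0.18 for Hoxb8 and -2.29 to -0.24 for Hoxa5. At a limit of 10 counts a median of 9 members was detected in sgKdm6a and 9.5 in sgControl tumours, and at 1 count 17 and 16. The cause of these changes was not tested. Depth leaves levels under 0.130 to 0.184 CPM unresolved.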

Other observations

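Values of further genes, chosen after they had been seen, are given beside the Hoxb block. Neurod1, a neuroendocrine factor gene, was at 105, 22.0, 62.0, 27.98, 19.3, 1.14 and 21.9 CPM in sgKdm6a tumours, against 0, 0.408, 1.80, 3.46, 0 and 0.798 CPM in sgControl tumours. The 2 tumours lowest in Hoxb6, Hoxb7 and Hoxb8, sgKdm6a replicates 1 and 3, were the highest in Neurod1 and the lowest in Skap1. They were unlike at the 3′ end of the Hoxb block, where Hoxb2 was at 0.0974 and 28.8 CPM. Meis2, a gene of a Hox partner, separated them too, with 6.52 CPM in replicate 1 and 253.7 CPM in replicate 3. No test was made of these relations, which rest on 2 tumours.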
